A study of Mus musculus with 3 samples.

Results

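The CXC and CX3C chemokines are small proteins, secreted or anchored in the cell membrane, that guide leukocytes into tissue. The genes described here, Cxcl1, Cxcl2, Cxcl3, Cxcl5, Cxcl9, Cxcl10, Cxcl12, Cxcl14, Cxcl16 and Cx3cl1, were chosen by name, with every array probe whose accession RefSeq assigns to one of these symbols. These were 10 of the 21743 genes and transcripts tested. They were measured in primary cultures of PyMT tumors from 3 mice, in which the MMTV promoter drives polyoma middle T antigen in the mammary epithelium. From each tumor, 1 culture was given RANK ligand (RL) for 24 h and 1 control culture was not, and all cultures grew in medium with serum, cholera toxin, insulin and EGF. The sample labels give the RL dose as 1000 µg/mL, whereas the study's methods give a lower dose. Bulk RNA of both cultures of a tumor was labeled with different dyes and hybridized to the same Agilent array, which gave 3 arrays and 6 channels, and precision is limited by the number of arrays. In tumors 1 and 3 the RL culture carried Cy3 and the control culture Cy5, whereas tumor 2 had the dyes the other way round, so an effect of dye order and a difference of tumor 2 cannot be told apart.

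Chemokines bind G protein-coupled receptors on leukocytes, and the receptor decides which cells are drawn. Cxcl1, Cxcl2, Cxcl3 and Cxcl5 act on Cxcr2 of neutrophils, whereas Cxcl9 and Cxcl10 act on Cxcr3 and Cxcl16 on Cxcr6, receptors of activated T cells. RANK signals through NF-κB, a transcription factor known to drive several of these genes, and RL is a mediator of progesterone in the mammary epithelium.

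The scanner software marks each spot that stands well above its background, and per channel this mark was given to 54.6% to 56.2% of the 55681 probes. All 9 epithelial markers were well above background in all 6 channels, with the keratin Krt18 the brightest. Their summed normalized intensities in tumors 1, 2 and 3 were 352600, 272900 and 482700 in the control cultures. The RL cultures gave 287100, 295400 and 355700. Krt18 alone had 201300, 117800 and 237800 in control and 121300, 158700 and 146000 in RL cultures. Without Krt18, the RL sum would be higher than control in tumor 1 and lower in tumors 2 and 3. The epithelial genes of the labeled tissue were thus present, and markers of other cell types were detected too. All 9 fibroblast markers were above background in every channel, and so were the 8 macrophage and monocyte markers, except Ptprc in the control culture of tumor 1. In bulk RNA, fewer cells of a type and less RNA per cell cannot be told apart.

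Of the 10 chemokine genes, 8 had 1 probe and Cxcl9 and Cxcl12 had 2 each. For 9 genes a probe was well above background in all 6 channels. Cxcl10 was well above background with RL in all 3 tumors but in the control culture of tumors 2 and 3 only, and so passed the filter on dim probes through its RL channels alone. No chemokine spot was saturated or marked as an outlier. The mean level of each gene differed more between tumors than its mean change with RL, for all 10 genes. Cxcl5 had the widest range of mean level between tumors, 2.80 on the log2 scale, and Cxcl9 the narrowest, 0.11. Tumor 1 held the lowest level of 8 genes, the exceptions being Cxcl14, lowest in tumor 2, and Cx3cl1, lowest in tumor 3.

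**Figure D1:**
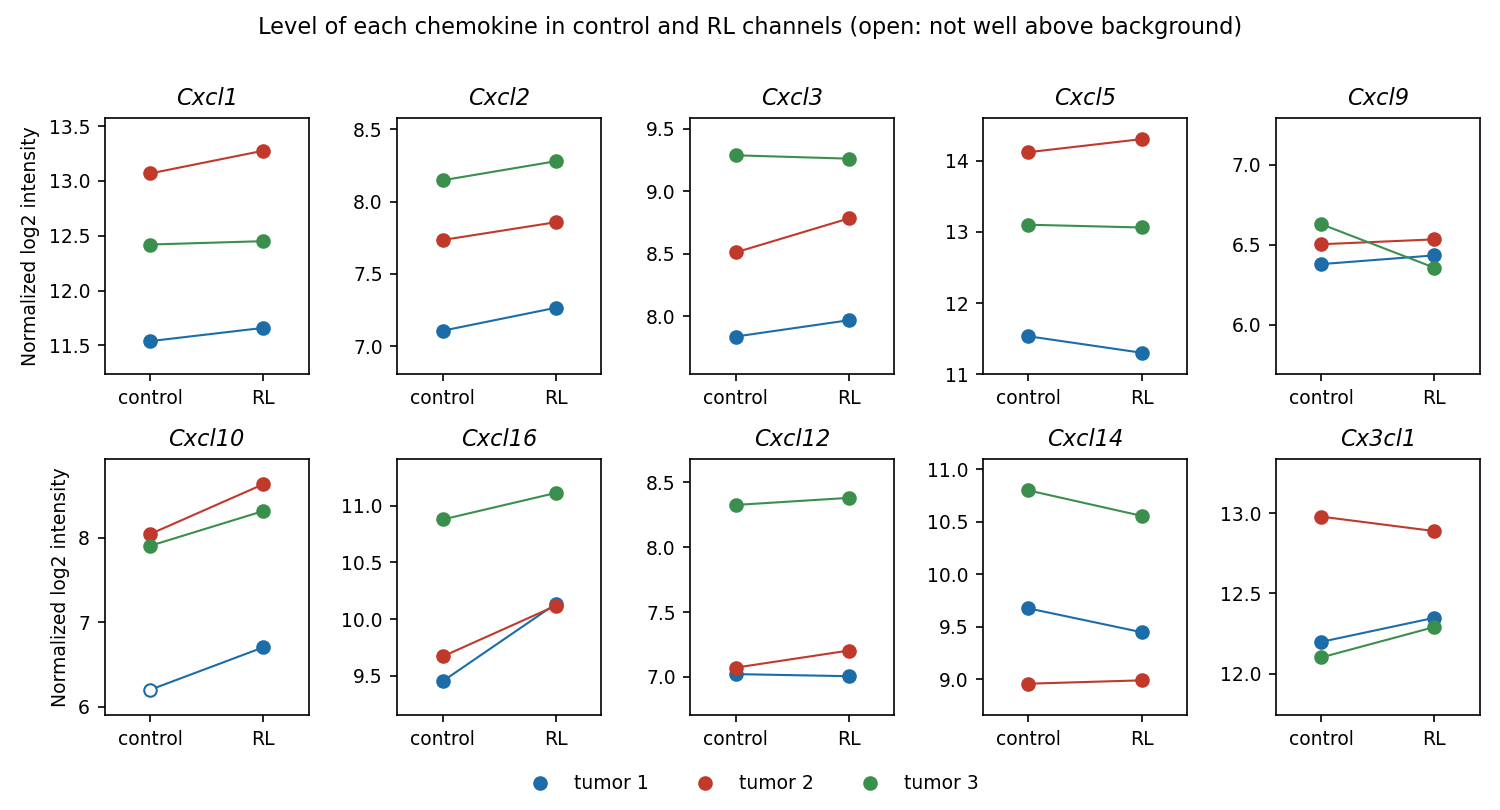
Normalized log2 intensity of each chemokine gene in the control and RL cultures of tumors 1, 2 and 3 (colors), with a line joining the cultures of a tumor, open circles for channels not well above background and a separate vertical scale in each panel. Lines of a gene lie far apart for Cxcl5, whose mean level ranged over 2.80 between tumors, and slope upward in all 3 tumors for Cxcl16 and, less steeply, for Cxcl1 and Cxcl2, and also for Cxcl10, whose line in tumor 1 starts at an open circle.

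The question of the comparison was whether 24 h of RL altered the chemokine messages of the tumor cultures, whose bulk RNA does not separate tumor cells from other cells. By limma's moderated test with Benjamini-Hochberg adjustment over all genes and a threshold of 0.05, 0 of the 10 genes were higher and 0 lower with RL, while 1 of 21743 genes and transcripts was higher (0.00460%) and 5 were lower (0.0230%). At an unadjusted p under 0.05, Cxcl10 and Cxcl16, 2 of the 10, were higher and 0 were lower, against 3.50% and 3.58% of all genes. By the rank product, at a proportion of false positives (pfp) under 0.05, Cxcl10 was the 1 chemokine gene called higher and 0 were called lower, against 0.170% and 0.235% of 21721 genes with a value on all 3 arrays. A dye term in limma called Cxcl10 and Cxcl16 higher and 0 lower, against 0.612% and 0.805% of all genes. With a dye term the only array of its dye order, that of tumor 2, is fitted exactly, so every call with it rests on the spread between tumors 1 and 3 (1 residual degree of freedom, prior 34.9). Ratios were above 0 in all 3 tumors for Cxcl1, Cxcl2, Cxcl10 and Cxcl16, which is 4 of the 10, and below 0 in all 3 for 0, against 14.1% and 13.5% of genes. Cxcl10 entered these counts through its RL channels alone and was not tested where all 6 channels had to be above background, so its part in them is a description and no support for a direction. Cxcl10 and Cxcl16 belong to the study's own list of RL-induced genes, drawn from these cultures, so neither count is independent evidence of their direction.

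**Figure D2:**
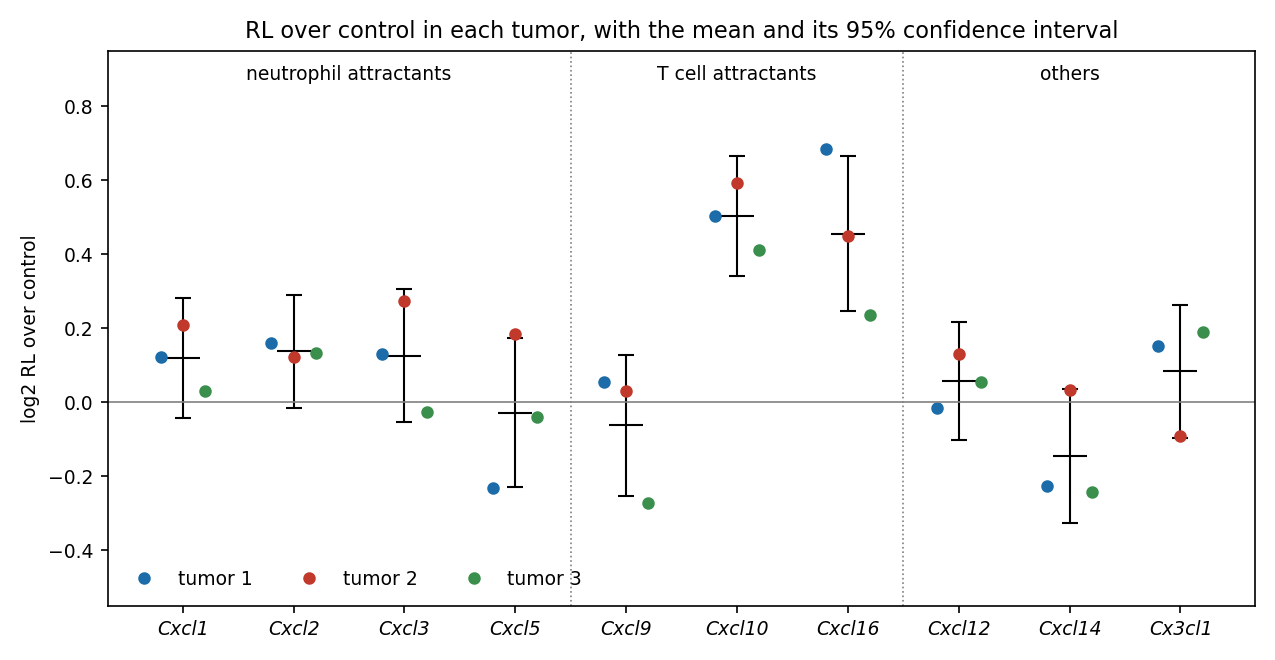
Log2 ratio of RL over control for each chemokine gene, with a point for each tumor (colors) and the mean with its 95% confidence interval in black. The interval lies above 0 for Cxcl10 (0.34 to 0.67, with the control culture of tumor 1 not well above background) and Cxcl16 (0.25 to 0.66) and spans 0 for the other genes, among which the mean turns negative with median centering for Cxcl1 (−0.017), Cxcl12 (−0.024) and Cx3cl1 (−0.067) and positive with a dye term for Cxcl5 (0.024).

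The neutrophil attractants Cxcl1, Cxcl2 and Cxcl3 are close relatives whose genes lie near each other on chromosome 5, with Cxcl1 beside Cxcl2, and Cxcl3 between Pf4 and Cxcl15. They share a stretch of letters before the transcription start, shown because it is the motif of the factor downstream of RANK. The promoter set used here, taken from RefSeq (GRCm38.p6), had entries for 8 of the 10 genes and none for Cxcl5 and Cxcl16. The NF-κB consensus was searched on both strands in the 250 bases before each start, and capitals mark its matches. The plus strand is shown for the 120 bases before the start of Cxcl1 at chr5:90891125-90891244, of Cxcl2 at chr5:90903779-90903898 and of Cxcl3 at chr5:90785981-90786100.
Cxcl1: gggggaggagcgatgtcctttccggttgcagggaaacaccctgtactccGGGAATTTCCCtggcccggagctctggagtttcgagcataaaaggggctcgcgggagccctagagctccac
Cxcl2: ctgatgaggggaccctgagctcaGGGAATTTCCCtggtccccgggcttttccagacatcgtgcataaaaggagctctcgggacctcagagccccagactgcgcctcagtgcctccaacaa
Cxcl3: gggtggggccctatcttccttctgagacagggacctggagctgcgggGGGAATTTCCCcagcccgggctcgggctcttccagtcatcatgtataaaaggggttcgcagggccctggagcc

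In each of these promoters the capitals hold 2 overlapping matches, 1 per strand, which lie 71 to 61 bases before the start in Cxcl1, 97 to 87 in Cxcl2 and 73 to 63 in Cxcl3. The consensus occurred in 4 of the 8 chemokine promoters, the fourth being Cxcl10, and in 3.9% of all 32851 promoters of the same length. These matches are a description of the letters and not evidence of binding.

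Cxcl1, the mouse keratinocyte chemoattractant, had normalized log2 intensities of 11.54, 13.07 and 12.42 in the control cultures of tumors 1, 2 and 3. The RL cultures had 11.66, 13.28 and 12.45. The control level of tumor 2 lay above the RL levels of tumors 1 and 3, so the groups overlapped widely. Within tumors, log2 RL over control was 0.12, 0.21 and 0.031, with a mean of 0.12 (SE 0.071, adjusted p = 0.796), which median centering of the arrays in place of loess turned to −0.017 and leaving out tumor 2 lowered to 0.076.

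Cxcl2, also called macrophage inflammatory protein 2, gave 7.11, 7.74 and 8.15 in the control cultures and 7.27, 7.86 and 8.28 with RL. Its ratios of 0.16, 0.12 and 0.13 differed little between tumors (SD 0.019), and their mean was 0.14 (SE 0.067, adjusted p = 0.742), or 0.076 with median centering, above 0 in 3 of 3 tumors. Cxcl3, which acts on the same receptor, gave 7.84, 8.51 and 9.29 in control and 7.97, 8.78 and 9.26 in RL cultures. Its ratios were 0.13 and 0.27 in tumors 1 and 2 and −0.027 in tumor 3, with a mean of 0.13 (SE 0.079, adjusted p = 0.807). Median centering lowered it to 0.018, leaving out tumor 2 gave 0.052, and the highest value of any setting was 0.20. For both genes the tumors lay further apart than the ratio, with tumor 1 lowest and tumor 3 highest in either condition.

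Cxcl5, an epithelial neutrophil attractant whose gene lies beside Ppbp, varied most between tumors. Control cultures measured 11.53, 14.12 and 13.10 and RL cultures 11.30, 14.31 and 13.06 in tumors 1, 2 and 3. Tumor 2 was highest and tumor 1 lowest in both conditions. The ratios of −0.23, 0.18 and −0.039 split along dye order, with tumor 2 apart. Its mean was −0.029 (SE 0.088, adjusted p = 0.966) and became 0.024 with a dye term and 0.073 without tumor 1, but −0.15 with median centering and −0.14 without tumor 2. Interval bounds for the fold of RL over control were 0.852 and 1.13 for Cxcl5, and the highest upper bound among the 4 neutrophil attractants was 1.24, that of Cxcl3.

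Among the T cell attractants, Cxcl10, the interferon-inducible ligand of Cxcr3 also known as IP-10, had the largest mean ratio of the 10 genes, although Cxcl16 had the largest in a single tumor (0.68 in tumor 1) and the larger mean without tumor 2 or tumor 3. Its promoter is shown because it is the only chemokine promoter of the 8 with both the NF-κB consensus and the core of the interferon-stimulated response element (GAAANNGAA). The 250 bases before the start lie on the minus strand of chromosome 5 at chr5:92348890-92349139 (GRCm38.p6, RefSeq). Capitals mark, from the left, the element core at 213 to 205 bases before the start and matches of the consensus at 159 to 150 and at 103 to 94, none of which overlap.
Cxcl10: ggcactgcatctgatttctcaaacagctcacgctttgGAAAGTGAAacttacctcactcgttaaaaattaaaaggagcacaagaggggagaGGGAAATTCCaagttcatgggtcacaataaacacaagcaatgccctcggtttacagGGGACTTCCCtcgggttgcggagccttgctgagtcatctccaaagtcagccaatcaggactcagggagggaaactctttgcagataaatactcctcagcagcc

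The element core was also present in the promoters of Cxcl9, at 175 to 167 bases before the start, and of Cxcl14, at 172 to 164, so that 3 of the 8 chemokine promoters held it, against 7.13% of all promoters. The gamma-activated site (TTCNNNGAA) occurred in 1 of the 8, that of Cxcl14 at 191 to 183 bases, against 7.02% of all promoters. Both motifs were searched on both strands, with no overlap with another match.

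In the control cultures of tumors 1, 2 and 3, Cxcl10 had normalized log2 intensities of 6.20, 8.04 and 7.91, the first of which was not well above background. With RL the levels were 6.70, 8.64 and 8.32. Tumor 1 was the lowest in both conditions, and its RL level lay under the control levels of the other tumors, so the groups overlapped. The ratios were 0.59 and 0.41 in tumors 2 and 3, where both cultures were well above background, and 0.50 in tumor 1, where the control was not. Their mean was 0.50 (SE 0.071), or 1.42-fold (95% confidence interval 1.27 to 1.59), and without tumor 1 it was 0.50 (adjusted p = 0.496 by limma). The fold, the interval and the tests below take the ratio of tumor 1 as measured, so they are a description and no support for a size or a call. The adjusted p of limma was 0.0932, which missed the threshold, while the rank product gave a pfp of 0.0114 and limma with a dye term an adjusted p of 1.8e-05, within a range of 1.8e-05 to 1 over 20 alternative settings. An intensity trend in eBayes (adjusted p = 0.0284) and the lack of background correction (adjusted p = 0.0482) also took Cxcl10 under the threshold. In tumor 1 the signal was 1.97 times the local background with RL and 1.21 times in the control, so that this ratio is the least well measured of the 3. With the scanner software's processed signals in place of the background correction and all normalization steps used here, the mean was 1.13 (SE 0.30, adjusted p = 0.534 by limma).

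Cxcl16, a chemokine anchored in the membrane by a mucin stalk that also serves as a scavenger receptor, gave 9.45, 9.67 and 10.88 in the control cultures. It gave 10.14, 10.12 and 11.11 with RL. In tumors 1 and 2 the RL levels were alike, and both lay below the control level of tumor 3. Ratios of 0.68, 0.45 and 0.23 in tumors 1, 2 and 3 had a mean of 0.46 (SE 0.092), or 1.37-fold (95% confidence interval 1.19 to 1.58), above 0 in 3 of 3 tumors and, ordered from the highest mean ratio down, rank 37 of 14043 named genes. It was 0.31 with median centering. Neither limma (adjusted p = 0.250) nor the rank product (pfp 0.0896) called it, whereas a dye term did (adjusted p = 0.000593, range 0.000593 to 1 over 21 alternative settings). Leaving out tumor 2 also called Cxcl16 (adjusted p = 0.000964) and Cxcl10 (adjusted p = 0.000349), in a fit on the remaining 2 arrays of equal dye order that called 605 genes higher and 954 lower.

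Cxcl9, the ligand of Cxcr3 induced by interferon gamma, was dim. One of its probes was well above background in 0 of 6 channels. The other was above it in all 6, with 6.38, 6.50 and 6.63 in control and 6.43, 6.53 and 6.36 in RL cultures, where signals were between 1.16 and 1.63 times the local background. Control and RL values were mixed. Its ratios were 0.055, 0.0305 and −0.27, and the mean of −0.062 (SE 0.084, adjusted p = 0.914) turned to 0.043 without tumor 3 and reached −0.13 with the authors' ratios. Unlike Cxcl10 and Cxcl16, Cxcl9 was thus below 0 in its mean, and a difference in response between these genes was not tested.

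**Figure D3:**
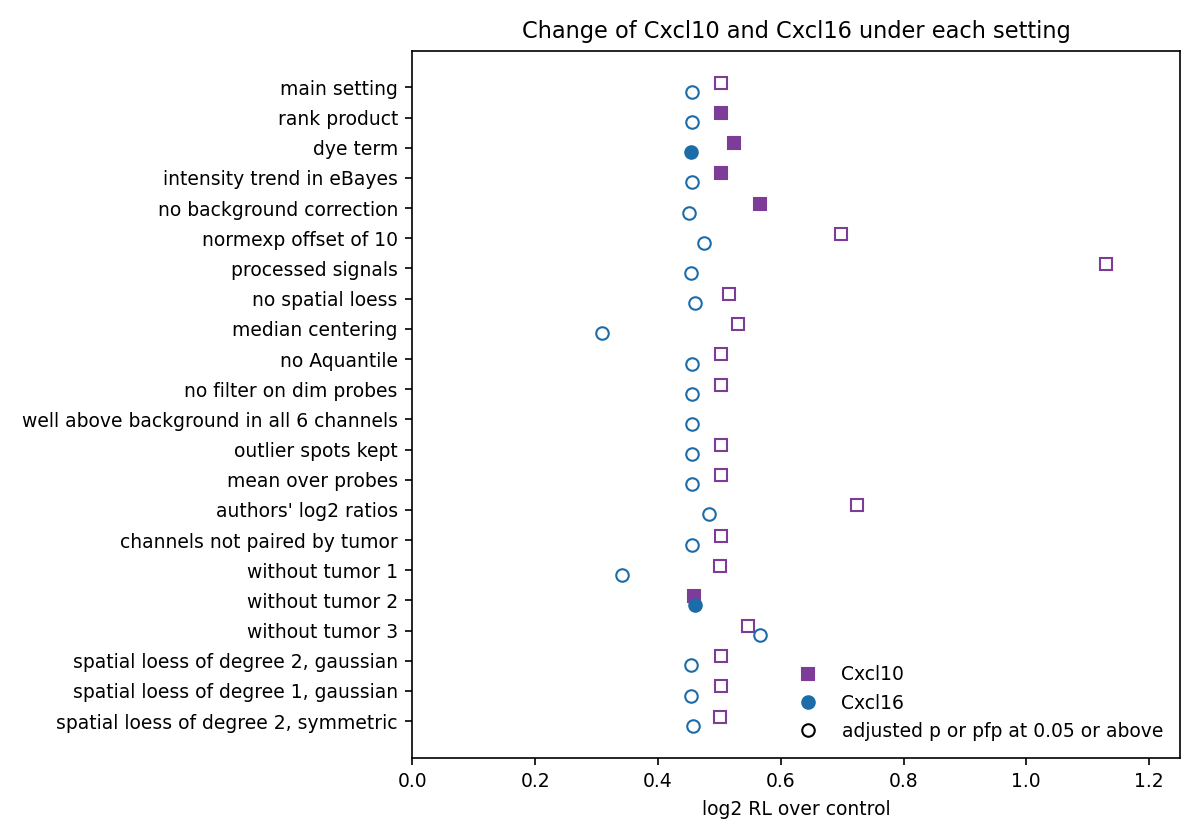
Mean log2 ratio of RL over control for Cxcl10 (squares) and Cxcl16 (circles) in the main and the alternative settings, filled where the adjusted p or the pfp was under 0.05. Cxcl10 lay between 0.46 and 1.13 and Cxcl16 between 0.31 and 0.57, all above 0, and Cxcl10 has no value where all 6 channels had to be above background.

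The comparison asked for by the choice of genes sets the neutrophil attractants against the T cell attractants. The median of the mean log2 ratio was 0.12 over the 4 neutrophil attractants and 0.46 over the 3 T cell attractants, beside −0.0019 over all genes tested. With median centering these medians were 0.0006 and 0.31 while the median of all genes shifted to −0.11, which leaves 0.11 and 0.42 relative to all genes. By tumor, the neutrophil attractants had medians of 0.13, 0.20 and 0.0019. The T cell attractants had 0.45 and 0.23 in tumors 2 and 3, above the neutrophil attractants by 0.25 and 0.23. In tumor 1 their median of 0.50 is the ratio of Cxcl10 itself, against a control not well above background. The medians of tumors 2 and 3 are the ratios of Cxcl16, and hold only with Cxcl10 in the list. Cxcl9 had 0.0305 and −0.27 in these tumors. Without Cxcl10, the T cell median of tumor 3 would lie below that of the neutrophil attractants. Without tumor 2 the neutrophil median was 0.064. The difference of the medians of the mean was 0.33. It rests on Cxcl10 and Cxcl16, since in the main setting Cxcl9 lay below all neutrophil attractants in its mean. Cxcl5 lay below Cxcl9 with median centering (−0.15 against −0.065) and without tumor 2 (−0.14 against −0.11). It also did so with processed signals and without tumor 3. The difference of the medians shrank to 0.074 where a probe had to be above background in all 6 channels, because Cxcl10 then dropped out. The T cell median was then 0.20. No test was made of this difference, since the genes were chosen with results known.

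**Figure D4:**
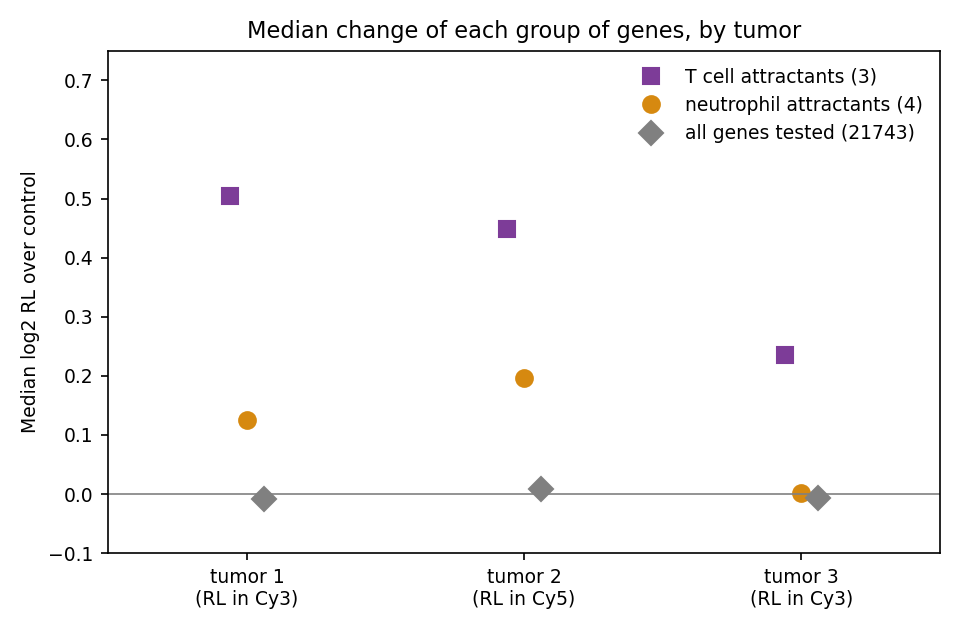
Median log2 ratio of RL over control in each tumor for the T cell attractants (squares, 3 genes), the neutrophil attractants (circles, 4 genes) and all 21743 genes and transcripts tested (diamonds). The squares lie at 0.50, 0.45 and 0.23, the first being the ratio of Cxcl10 against a control not well above background. Without Cxcl10, the square of tumor 3 would lie below its circle. The circles lie at 0.13, 0.20 and 0.0019, although with median centering the median of the neutrophil attractants was 0.0006.

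Markers of the cells that these chemokines attract were measured on the same arrays. Of the 9 T and NK cell markers, 4 were well above background in every channel and 1 more, Gzmb, in the control culture of tumor 3 only, while Cd2, Cd3d, Cd3g and Cd8a were above it in 0 channels. Their summed intensities in tumors 1, 2 and 3 were 2918, 2635 and 2924 in control and 2929, 2726 and 2852 in RL cultures, with Cd4 the brightest. The 4 genes tested had a median of −0.0059 (−0.13 with median centering, −0.018 relative to all genes), and the largest ratio was that of Lck, a kinase of T cell receptor signaling, at 0.11 (SE 0.071, adjusted p = 0.818), which median centering turned to −0.046. Cd4 had −0.038 and Nkg7, a granule protein of cytotoxic cells, −0.014, or −0.20 and −0.13 with median centering. Of the 8 neutrophil markers, 7 were on the array under a matched accession, and 6 were above background in all 6 channels, with Mpo in the control culture of tumor 1 only. Their sums were 192500, 78610 and 89280 in control and 202200, 71910 and 77710 in RL cultures, with Ltf, an iron-binding protein that mammary epithelium also makes, or the cytokine receptor Csf3r the brightest. The 6 neutrophil markers tested had a median of −0.11 (−0.19 with median centering, −0.075 relative to all genes), with S100a8 at −0.37 (−0.78, −0.33 and 0.016 by tumor, −0.16 without tumor 1), Ltf at −0.20 (0.090, −0.36 and −0.35 by tumor, −0.47 with median centering) and S100a9 at −0.13. None of these passed limma (0 called, 1 lower at an unadjusted p under 0.05, 0 by the rank product), and the dye term called 1, S100a8, lower. For these and all lists below, the shares of all genes to set beside the counts are, for higher and lower, 3.50% and 3.58% at an unadjusted p under 0.05, 0.170% and 0.235% by the rank product and 0.612% and 0.805% with the dye term. Whether such cells took part in the ratios of Cxcl10 and Cxcl16 was not tested.

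Cxcl12, the homeostatic ligand of Cxcr4 made mainly by stromal cells, measured 7.02, 7.07 and 8.32 in control and 7.01, 7.20 and 8.38 in RL cultures. Its level was highest in tumor 3. The ratios were −0.016, 0.13 and 0.055 with a mean of 0.057 (SE 0.070, adjusted p = 0.907), or −0.024 with median centering, 0.019 without tumor 2 and 0.13 with processed signals. A second probe, on another transcript of the gene, was well above background in 4 of 6 channels, those of tumors 2 and 3. Its ratios there were 0.16 and 0.083.

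Fibroblast markers also had their largest sum in tumor 3, with 18940 in the control and 18540 in the RL culture, against 9878 and 8162 in tumor 1 and 4767 and 5104 in tumor 2, and Col1a1 or Col1a2 was the brightest. Their part in the level of Cxcl12 was not tested. Over the 9 fibroblast markers the median ratio was −0.051 (−0.20 with median centering, −0.089 relative to all genes), with Pdgfra at −0.19 (−0.38, −0.15 and −0.047 by tumor, −0.098 without tumor 1), Col3a1 at −0.094 (−0.28 with median centering) and Fap at 0.086 (0.024), and limma called 0 (1 lower at an unadjusted p under 0.05, 0 by the rank product).

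Cxcl14, a chemokine of epithelia whose receptor is debated, had the lowest mean ratio of the 10 genes. Without tumor 1 that of Cxcl9 was lower (−0.12, against −0.11 for Cxcl14). Control cultures gave 9.68, 8.96 and 10.80 and RL cultures 9.45, 8.99 and 10.56 for Cxcl14. Tumor 3 was highest and tumor 2 lowest in both conditions. The ratio was −0.23 in tumor 1 and −0.24 in tumor 3, with RL in Cy3, and 0.032 in tumor 2, with RL in Cy5. Its mean was −0.15 (SE 0.080, adjusted p = 0.780), below 0 in 2 of 3 tumors, and −0.10 with a dye term, −0.30 with median centering and −0.24 without tumor 2.

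Cx3cl1, or fractalkine, is the only CX3C chemokine, a membrane-anchored adhesion molecule whose cleavage frees a soluble attractant for monocytes and T cells. It gave 12.20, 12.98 and 12.10 in control and 12.35, 12.89 and 12.29 in RL cultures. Tumor 2 was highest in both. Ratios of 0.15 and 0.19 in tumors 1 and 3 and −0.090 in tumor 2 had a mean of 0.083 (SE 0.079, adjusted p = 0.887), which median centering turned to −0.067 and leaving out 1 tumor moved between 0.030 and 0.17. The median over Cxcl12, Cxcl14 and Cx3cl1 was 0.057, which median centering turned to −0.067 (0.044 relative to all genes). Cxcl5, Cxcl14 and Cx3cl1 had opposite signs in tumor 2 and in tumors 1 and 3. Across 21721 genes, which are not independent replicates, the ratios of tumors 1 and 3 correlated with r = 0.453, and those of tumor 2 with tumors 1 and 3 with r = −0.112 and −0.109.

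The receptors of these ligands were mostly undetected. Cxcr1, Cxcr2, Cxcr5, Cx3cr1 and Ackr1 were well above background in 0 of 6 channels and Cxcr3 in 2, so that neither the receptor of the neutrophil attractants nor that of Cxcl9 and Cxcl10 could be tested. Of the 3 receptors tested, Cxcr4, the receptor of Cxcl12, had ratios of 0.70, 0.38 and −0.042 and a mean of 0.34 (SE 0.12, adjusted p = 0.607). Its mean was 0.17 without tumor 1, 0.54 without tumor 3 and 0.55 with processed signals. The median of the 3 receptors was 0.050, or 0.059 with median centering (0.17 relative to all genes). Limma called 0 of them, with 1 higher at an unadjusted p under 0.05 and 0 by the rank product, and the dye term called Cxcr4 higher, a gene that is in the study's list from these cultures. Cxcr6, the receptor of Cxcl16, had a mean of 0.050 (SE 0.078, adjusted p = 0.927) and Ackr3, a scavenger of Cxcl12, −0.067 (SE 0.084, adjusted p = 0.909).

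Of the 6 other CXC ligands, Cxcl11 was not on the array under a matched accession, and Cxcl13 and Cxcl15 were above background in 0 channels. The platelet chemokine Pf4 had ratios of −0.69, −0.033 and −0.21 with a mean of −0.31 (SE 0.12, adjusted p = 0.634). Its mean was −0.12 without tumor 1 and −0.49 with median centering. Without tumor 2 it was −0.45, which limma called lower (adjusted p = 0.00139). Cxcl17, a mucosal chemokine, had a mean of −0.056 and Ppbp, the neighbor of Cxcl5, a mean of 0.051. Their median was −0.056, or −0.12 with median centering (−0.0075 relative to all genes), and limma called 0 of 3, with 1 lower at an unadjusted p under 0.05 and 0 by the rank product or the dye term.

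All 7 genes of chemokine processing were tested, and limma called 0 of them, with 2 lower at an unadjusted p under 0.05 and 0 by the rank product. Dpp4, the peptidase that trims and inactivates Cxcl10 and Cxcl12, had ratios of −0.55, −0.29 and −0.18. Their mean was −0.34 (SE 0.086, adjusted p = 0.394), or −0.60 with processed signals. Dpp4 was the 1 gene the dye term called lower (adjusted p = 0.020, range 0.00842 to 1 over 21 alternative settings). Mmp8, a collagenase that cleaves Cxcl5, had −0.49, −0.11 and −0.16 and a mean of −0.25 (SE 0.088, adjusted p = 0.578), or −0.68 with processed signals. It was well above background in all 3 control channels but with RL in 2 of 3, not in tumor 2, and was not tested where all 6 were required, so its part in the counts of this list is no support for a direction. The sheddases of Cx3cl1 and Cxcl16, Adam10 and Adam17, had means of 0.020 and 0.10, which median centering turned to −0.14 and −0.0077. Mmp2, Mmp9 and Mmp14, which cleave several chemokines, had −0.097, 0.069 and 0.020, of which Mmp9 and Mmp14 turned to −0.16 and −0.14 with median centering. The list's median of the mean ratios was 0.020, whereas its medians by tumor were −0.077, −0.094 and −0.043. With median centering the median of the mean ratios was −0.16 (−0.050 relative to all genes).

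Cxcl10 is known to respond both to interferon and to NF-κB, and the lists of these responses were set beside it. The 18 interferon-responsive genes tested had a median ratio of 0.059 (0.13, 0.10 and 0.054 by tumor), which median centering turned to −0.086 (0.025 relative to all genes), and 3 were above 0 in all 3 tumors, against 14.1% of all genes. Limma called 0 of them, with 2 higher at an unadjusted p under 0.05 and 0 by the rank product. The largest ratios were those of the transcription factor Irf1 at 0.30 (SE 0.069, adjusted p = 0.343), the 1 gene the dye term called, of the immunoproteasome subunit Psmb8 at 0.27 (SE 0.085, adjusted p = 0.547) and of the GTPase Gbp7 at 0.14. By tumor, Psmb8 had 0.48, 0.16 and 0.16 and Gbp7 0.36, 0.11 and −0.041, and without tumor 1 their means were 0.16 and 0.036. Median centering lowered Irf1 to 0.13, Psmb8 to 0.068 and Gbp7 to 0.026. The 12 NF-κB response genes tested had a median of 0.47 (0.75, 0.30 and 0.22 by tumor), or 0.35 with median centering (0.46 relative to all genes), and 9 were above 0 in all 3 tumors, against 14.1% of all genes. Limma called 0 of these too, with 9 higher at an unadjusted p under 0.05, 4 by the rank product and 8 with the dye term, against 3.50%, 0.170% and 0.612% of all genes. The inhibitors Nfkbia and Nfkbie and the adaptor Traf1 led them, at 0.77 (SE 0.18, adjusted p = 0.349), 0.75 (SE 0.15, adjusted p = 0.255) and 0.70 (SE 0.13, adjusted p = 0.229). Tumor 1 had the largest ratio of each, with 1.47, 0.47 and 0.37 by tumor for Nfkbia, 1.31, 0.58 and 0.36 for Nfkbie and 1.14, 0.31 and 0.65 for Traf1, and without tumor 1 the means were 0.42, 0.47 and 0.48. Of the 12, 9 are in the study's list of RL-induced genes from these cultures and are not independent evidence of the direction. Cxcl1, Cxcl2 and Cxcl3, with the consensus in the promoters shown above, had means between 0.12 and 0.14 on the same arrays, or −0.017, 0.076 and 0.018 with median centering.

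The 9 epithelial markers had a median of −0.091 (−0.25 with median centering, −0.14 relative to all genes). Their medians by tumor were 0.14, −0.17 and −0.075. Krt18 had −0.33 (−0.73, 0.43 and −0.70 by tumor), Krt14 −0.19 (−0.049 without tumor 3) and the luminal transcription factor Elf5 −0.14. With all 3 tumors limma called 0, as did the unadjusted p and the rank product. Leaving out tumor 2 took Krt18 to −0.72, which limma then called lower (adjusted p = 4.45e-07). Median centering took Krt18, Krt14 and Elf5 to −0.60, −0.40 and −0.35. The 8 macrophage and monocyte markers had a median of 0.029, which median centering turned to −0.088 (0.023 relative to all genes), with Cd68 at −0.23, Aif1 at 0.16 (0.096, 0.44 and −0.052 by tumor, 0.022 without tumor 2) and Cd14, which median centering turned to −0.044, at 0.15. With median centering Cd68 had −0.39 and Aif1 0.028. Limma called 0 of these, with 1 lower at an unadjusted p under 0.05 and 0 by the rank product. Their sums were 25330, 14810 and 16640 in control and 33410, 14660 and 16300 in RL cultures, with Cd14 the brightest. The larger RL sum of tumor 1 lay in Cd14 (17920 in control, 26480 with RL), and the list's median there was −0.075. Of the 6 endothelial markers, 2 were tested, Pecam1 at −0.11 (−0.19, 0.15 and −0.31 by tumor) and Kdr at 0.10 (0.17, −0.067 and 0.21), with a median of −0.0052 (−0.12 with median centering, −0.0082 relative to all genes) and 0 called by limma, the unadjusted p or the rank product. Median centering turned Kdr to −0.060, and leaving out 1 tumor gave −0.25 to −0.018 for Pecam1 and 0.052 to 0.19 for Kdr. Tek was above background in 0 channels, and Cdh5 and Tie1 in 2 each. Endothelial sums were 2373, 2372 and 2215 in control and 2586, 2302 and 2444 in RL cultures, with Kdr the brightest.

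**Figure D5:**
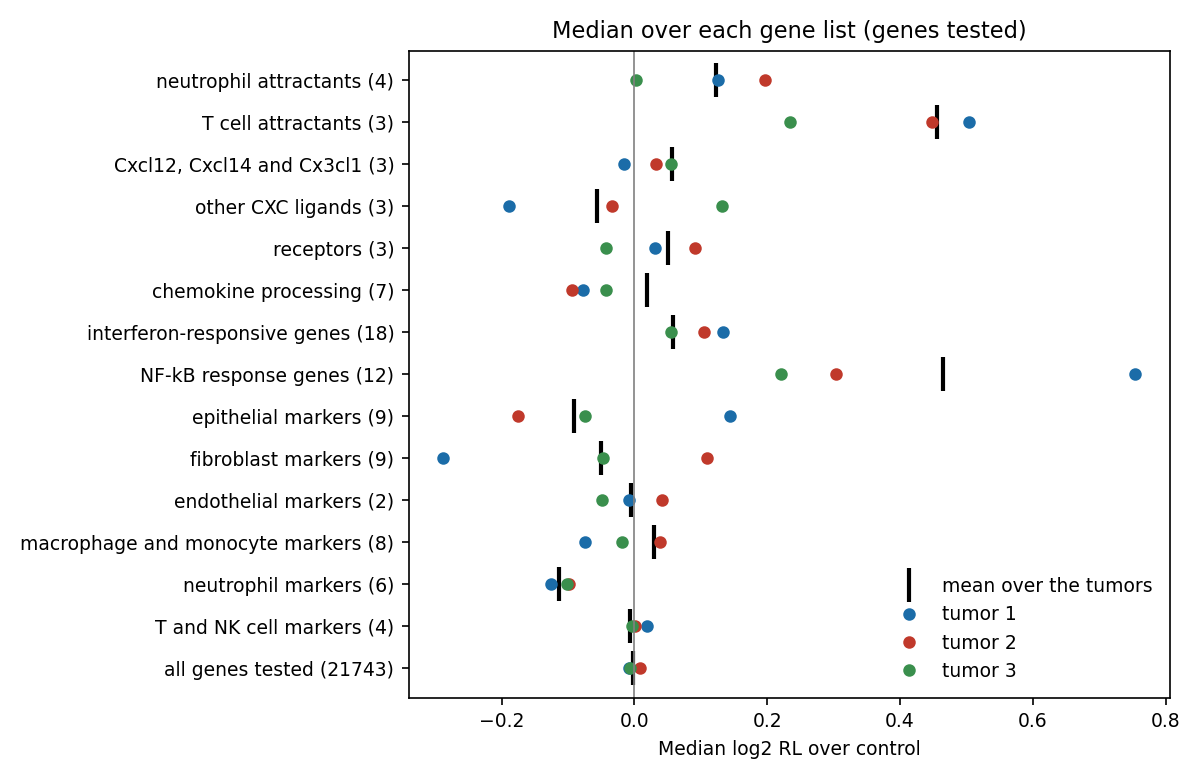
Median log2 ratio of RL over control for each gene list in tumors 1, 2 and 3 (points) and for the mean over the tumors (bars), with the number of genes tested in brackets. The NF-κB response genes (0.47) and the T cell attractants (0.46) have the highest medians. The T cell median was 0.20 where all 6 channels had to be above background, because Cxcl10 then dropped out. With median centering the neutrophil attractants move from 0.12 to 0.0006. The interferon-responsive genes (−0.086), chemokine processing (−0.16), the macrophage and monocyte markers (−0.088) and the group of Cxcl12, Cxcl14 and Cx3cl1 (−0.067) then turn negative.

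Of 14024 named genes outside the 10 with a value on all 3 arrays, those closest to Cxcl10 in the ratios of the 3 tumors were Cep162, Exoc3l4, Ifi47, Traf3 and Acod1, at Euclidean distances of 0.18 to 0.25. These distances use the ratio of Cxcl10 in tumor 1, whose control was not well above background, so the order is a description only. Cep162, a protein of the centriole, had ratios of 0.54, 0.46 and 0.29, but the means of its 3 passing probes ranged from 0.025 to 0.43. Ifi47, an interferon-inducible GTPase, had 0.38, 0.40 and 0.33, and Acod1, the enzyme that makes itaconate, 0.58, 0.46 and 0.21. Traf3, an adaptor that restrains the alternative NF-κB pathway, had 0.43, 0.37 and 0.33, and Exoc3l4 had 0.58, 0.39 and 0.40. Both of these are in the study's list from these cultures. Median centering lowered the means of Ifi47, Traf3 and Acod1 from 0.37, 0.38 and 0.42 to 0.18, 0.24 and 0.26. Those of Cep162 and Exoc3l4 fell from 0.43 and 0.45 to 0.29 and 0.30. Among the genes closest to Cxcl14 were Edrf1, Esrp2, Map1lc3b and Pcdhac2, at distances of 0.022 to 0.029. The epithelial splicing regulator Esrp2 had ratios of −0.21, 0.016 and −0.24, and the autophagy protein Map1lc3b −0.25, 0.020 and −0.25. Their means of −0.15 and −0.16 became −0.30 and −0.33 with median centering.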

How the data were processed

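The authors scanned 3 Agilent arrays with Feature Extraction 10.7.3.1 and deposited the median intensity of each spot and of its local background per dye, uncorrected. The authors also deposited normalized log2 ratios of the same arrays. The study's methods describe log2 ratios over control, after spatial and intensity loess and Aquantile, while the deposited table states no direction and its columns ran as Cy5 over Cy3, which is control over RL in tumors 1 and 3. Set against the values computed here, with the sign of each dye order applied, these correlated with r = 0.965, 0.956 and 0.962 across the genes tested (slopes 1.15, 1.17 and 1.15) and with r = 0.882, 0.875 and 0.88 across all probes, detected or not. With the scanner's processed signals, taken as the software gave them and not normalized further here, r was 0.625, 0.608 and 0.627 over all spots. The deposited log2 ratios had medians of 0.00244, −0.0011 and 0.00069. The labels put the control and RL cultures of a tumor on the same array, so the ratio pairs them.

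Values were computed with limma 3.58.1 (R 4.3.3). The background step was normexp (offset 50) on all spots. Control spots and outlier spots were dropped, and ratios were normalized by intensity loess, by loess on row and column (span 0.1, degree 1, symmetric family) and between arrays by Aquantile. The degree and family are in no source. After a first run, 3 other combinations of degree 1 or 2 and family were run on the data and compared with an earlier analysis of them, and the first of the 4 was kept. Probes were named through RefSeq accessions (28026 of 55681 matched). A gene was represented by its brightest probe among those well above background in all 3 control or all 3 RL channels. Ratios were tested against 0 by eBayes after lmFit (residual degrees of freedom 2, prior 6.64), with Benjamini-Hochberg adjustment over 21743 genes and transcripts, 21721 of them on all 3 arrays. SE and 95% intervals come from this fit. The rank product was written for this work (1000 permutations, seed 1), and the programs were tested on simulated data.

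The chemokine genes and the 14 lists (neutrophil attractants, T cell attractants, other chemokines of the 10, other CXC ligands, receptors, chemokine processing, interferon-responsive genes, NF-κB response genes and 6 lists of cell type markers) were chosen with earlier results of these data known. Named are all 10 genes, the tested ligands, receptors and processing genes, the 3 largest ratios by size of each other list, and the 5 genes closest to the chemokine gene of highest and of lowest mean ratio, of which 1 is not reported here. A further 21 alternatives were run, 3 of them, the loess combinations, chosen after seeing the data.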

Additional observations from a re-analysis of the deposited data

How the results depend on the processing

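Over 21 alternatives, the 10 chemokine genes gave 209 values, of which 196 kept their direction and side of the threshold, 7 passed it where the value reported did not and 6 turned direction. Those 7 were Cxcl10 with the rank product, a dye term, an intensity trend, no background correction and without tumor 2, and Cxcl16 with a dye term and without tumor 2. The 46 other genes of the naming rule gave 965 values, of which 912 kept both, 33 passed the threshold (4 with the rank product, 12 with a dye term and 17 without tumor 2) and 20 turned. Genes called higher and lower, 1 and 5 as reported, became 37 and 51 with the rank product, 133 and 175 when a dye term was added, 9 and 21 under an intensity trend, 6 and 11 without background correction, 4 and 10 with an offset of 10, 0 and 0 with processed signals (854 and 806 at an unadjusted p under 0.05 in limma), 0 and 0 with median centering (7 and 16 unadjusted), 0 and 3 without a filter (1140 and 1147 unadjusted), 0 and 3 with all 6 channels above background (721 and 731 unadjusted), 1 and 3 with the mean over probes and 2 and 7 with the authors' log2 ratios. No spatial loess gave 1 and 6, and no Aquantile and outlier spots kept gave 1 and 5 each. Without the replicate block, with channels not paired by tumor, limma called 0 and 0 (45 and 21 unadjusted). Leaving out 1 tumor gave 0 to 605 higher and 1 to 954 lower, the highest without tumor 2, which leaves 2 arrays of equal dye order. The 3 combinations of loess degree and family chosen after seeing the data each called 1 and 5.

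Medians moved with median centering, to 0.0006 for the neutrophil and 0.31 for the T cell attractants, where the median of all genes shifted by −0.11. With all 6 channels above background the T cell median was 0.20 and the difference 0.074, because Cxcl10 was not tested. Leaving out 1 tumor gave differences of 0.22 to 0.39, with neutrophil medians of 0.064 (without tumor 2) to 0.15 and T cell medians of 0.34 to 0.55.

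Direction turned with a dye term for Cxcl5 (0.024) and Mmp14 (−0.044), and with median centering for Cxcl1 (−0.017), Cxcl12 (−0.024), Cx3cl1 (−0.067), Ppbp (−0.079), Adam17 (−0.0077), Mmp9 (−0.16), Mmp14 (−0.14), Adam10 (−0.14), Kdr (−0.060), Cd14 (−0.044) and Lck (−0.046), and with the authors' ratios for Nkg7 (0.0008). Leaving out 1 tumor gave −0.14 to 0.073 for Cxcl5, −0.12 to 0.043 for Cxcl9, −0.15 to 0.088 for Cxcl17, −0.083 to 0.17 for Ppbp, −0.15 to 0.036 for Ackr3, −0.026 to 0.12 for Cxcr6, −0.14 to 0.15 for Mmp14, −0.0060 to 0.050 for Adam10, −0.23 to 0.027 for Col3a1, −0.028 to 0.16 for Fap, −0.061 to 0.31 for Cd14 and −0.068 to 0.0021 for Cd4. Of the 56 genes named by the rule, 21 had a mean over 1.5 times larger and 12 one over 1.5 times smaller with median centering, 20 and 8 without tumor 2, 13 and 6 with processed signals, 8 and 8 without tumor 3, 7 and 12 without tumor 1, 1 and 12 with a dye term, 5 and 1 with the authors' ratios and 4 and 1 with an offset of 10, and at most 2 in any other setting. None of the genes that turned passed the threshold as reported, and the cause was not tested. Signal over background limits Cxcl9 and, in tumor 1, Cxcl10.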
